A study of Papilio machaon with 10 samples.

Results

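A run of 7 near-consecutive locus tags of the swallowtail butterfly Papilio machaon, RR48_04780 to RR48_04783 and RR48_04785 to RR48_04787, was followed through development. They are 7 of the 15285 genes in the table of expression values. The tags were chosen by their profiles over all 10 libraries, because these profiles match the ones the study drew for its farnesyl pyrophosphate synthase (FPPS) genes. Their identity as FPPS genes rests on that match and on the shared order of tags and gene IDs. No annotation used here pairs the tags with gene names, so they are called putative FPPS copies. Whether the order of tags follows the order along a scaffold was not tested. Since the profiles served for the choice, the levels below are a description and were not tested.

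FPPS joins short isoprenoid units into farnesyl pyrophosphate. In insects this product is the starting material for juvenile hormone, and it also feeds the prenylation of proteins and other isoprenoid pathways. Juvenile hormone is known for holding larval moults to a larval outcome, for its decline before metamorphosis, and for its roles in adult reproduction.

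The study sequenced whole-body poly(A) RNA of P. machaon, whose larvae were fed fennel or carrot, to profile gene expression through development. There were 10 libraries, 1 for the egg, 1 for each larval instar L1 to L5, and 1 for each sex of pupae and of adults. No strain, age in days or treatment is stated. According to the paper, most pupae were bought from insectaria near Ya'an. Some pupae and adults were raised from larvae collected near Kunming. The origin of the animals in each library is not given, so origin and stage cannot be told apart. The egg and L1 libraries each pooled 10 individuals, the L2 library pooled 5, and every other library came from 1 animal. With 1 library per stage and sex there is no spread between replicates, and the difference between 2 libraries also holds the difference between the animals used.

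The deposited unit is RPKM, in which reads are divided by the length of the gene and a total for the library. Reads summed over genes were 1.05 to 1.55 times that total, and the reason was not tested. The total was worked out from the values by assuming gene lengths in steps of 3 bp, which sets the scale of this ratio. The intervals and the sums over copies below assume that each read was counted once. Values step by the worth of a single read, and this gave back the number of reads behind each. Reads summed over genes ran from 2.33e+07 in L5 to 3.60e+07 in L2. A count of 0 allows an expected level of up to 3 reads, and intervals below are 95% intervals of the read counts, so both cover counting error only. In whole bodies, fewer cells that express a gene and less RNA per cell cannot be told apart. L2 was the larval library that stood apart. It correlated with the other larvae at 0.73 to 0.77 (Spearman) over the 13984 genes that averaged 1 RPKM or more, against 0.84 to 0.91 among the other 4. With the male pupa it was 0.69, against 0.53 to 0.57 for the others. For the levels, the larval differences, the closest correlations between copies and the steps around L2, values without L2 are therefore also given.

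The lengths that made the reads whole were similar for 6 of the 7 copies. They were 1113 bp for RR48_04780, 1131 bp for RR48_04781, 990 bp for RR48_04782, 1137 bp for RR48_04785, 1170 bp for RR48_04786 and 1185 bp for RR48_04787. RR48_04783 stood apart at 2547 bp. These lengths assume gene models in steps of 3 bp, which sets their scale, while the ratios between them follow from the values. Whether RR48_04783 is 1 gene or a model that joins several was not tested, and the values alone cannot tell a longer model from reads counted in fractions, which would alter the reads and intervals given for it but not its RPKM. How reads that fit several near-identical copies were assigned is not given in the sources used here, and levels of single copies are uncertain to that extent.

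All 7 copies passed the mean RPKM of at least 1. Averaged over the 10 libraries, RR48_04787 was the highest at 135 RPKM, above 91.9% of all genes. RR48_04786 followed at 39.0, RR48_04780 at 21.4, RR48_04783 at 17.3, RR48_04785 at 13.8, RR48_04781 at 13.7 and RR48_04782 at 10.8. Without L2, RR48_04780 averaged 3.72 and RR48_04782 averaged 1.38, so the order among the lower copies depends on that library. For description the profiles are taken in 3 kinds, formed after the values had been seen: a pair of copies present throughout, a pair with most of its signal in L2, and 3 copies highest in the egg or L1.

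**Figure D1:**
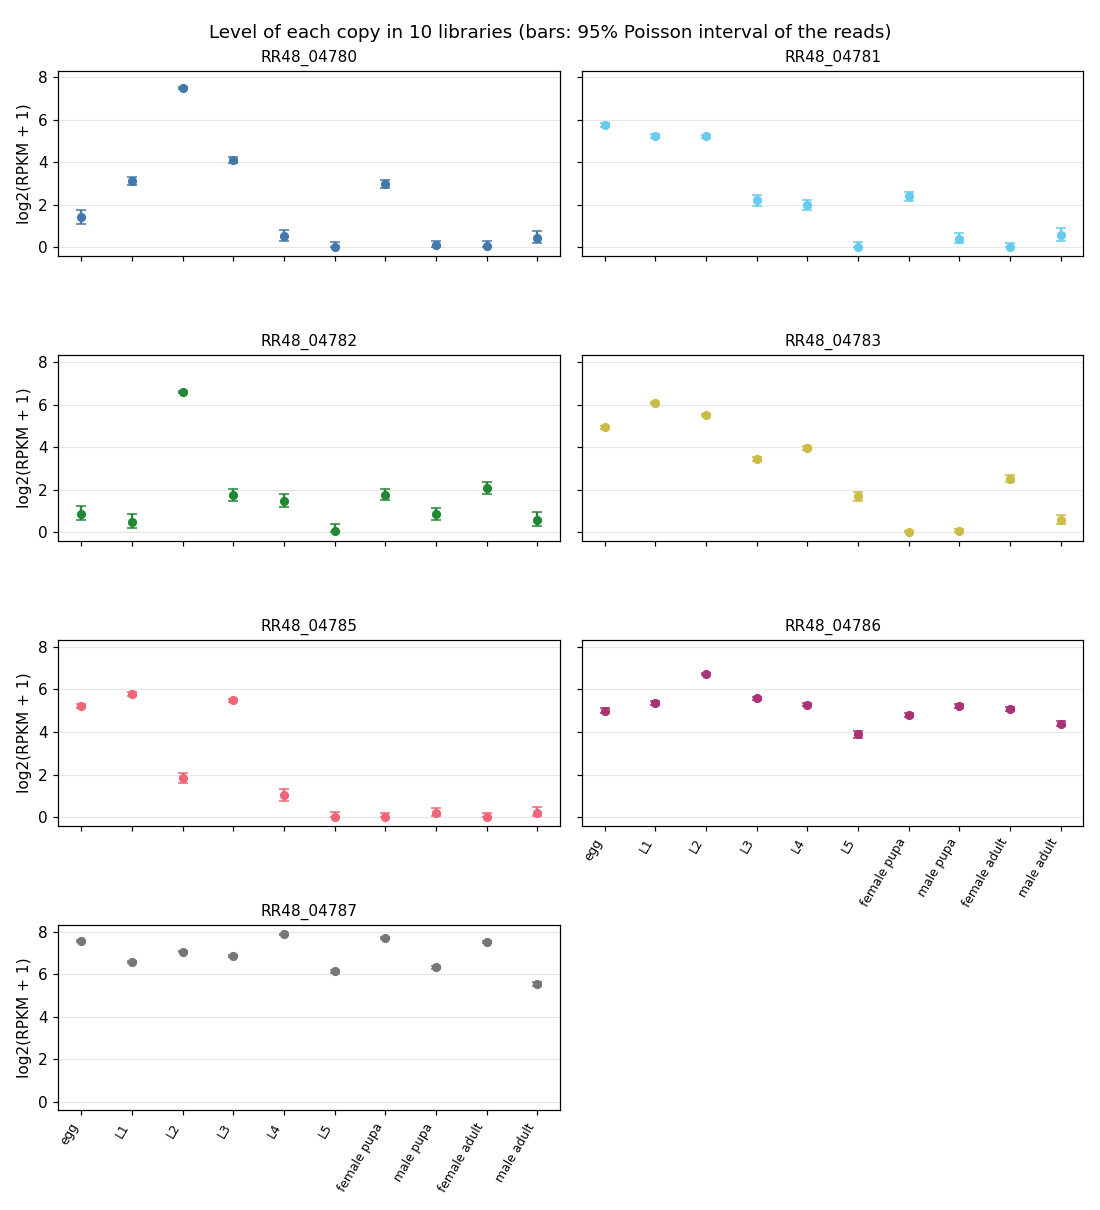
Level of each putative FPPS copy, as log2(RPKM + 1), in the 10 libraries in developmental order, with points for single libraries and bars for the 95% Poisson interval of the reads. RR48_04786 and RR48_04787 stay above 10 RPKM in every library, while the other 5 copies each drop below 1 RPKM in at least 3.

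RR48_04787 and RR48_04786 were the only copies at 1 RPKM or more in all 10 libraries, a property shared by 65.7% of the genes tested. RR48_04787 stood at 187 RPKM in the egg, and the instars L1 to L5 gave 94.5, 133, 116, 235 and 69.8 RPKM in that order. The female and male pupae had 209 and 79.2 RPKM, and the female and male adults 183 and 45.5 RPKM. Its highest library thus exceeded its lowest 5.16-fold. In the order of its levels, 1 of 9 pairs of neighbours had overlapping counting intervals, namely the egg (181 to 193 RPKM) and the female adult (178 to 188 RPKM). RR48_04786 stood at 31.1 RPKM in the egg and at 39.6, 103, 47.0, 38.1 and 13.9 RPKM in L1 to L5. Its level was 27.0 RPKM for the female and 36.7 RPKM for the male pupa, and 32.5 RPKM for the female and 20.1 RPKM for the male adult. It was highest in L2 and lowest in L5, 7.44-fold apart, and without L2 its highest library was L3. Intervals of neighbours overlapped in 5 of 9 pairs.

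RR48_04780 and RR48_04782 had most of their signal in a single library, L2. RR48_04780 had 34 reads in the egg and 7.77, 180.3, 16.2 and 0.449 RPKM in L1 to L4, and no read in L5. Of the pupae the female had 6.89 RPKM and the male 0.0686 RPKM, and of the adults the female had 0.0432 RPKM and the male 0.364 RPKM. L2 held 84.4% of its RPKM summed over the libraries, and exceeded the next library, L3, 11.2-fold. RR48_04782 had 0.843 RPKM in the egg and 0.385, 95.7, 2.40, 1.81 and 0.0563 RPKM in L1 to L5. Pupae had 2.39 RPKM (female) and 0.810 RPKM (male), and adults 3.26 RPKM (female) and 0.511 RPKM (male). L2 held 88.5% of its sum. The next library was the female adult, 29.4-fold below L2, and in the order of its levels the other 8 of 9 pairs of neighbours had overlapping intervals. The L2 values rested on 5317 reads for RR48_04780 and 2510 reads for RR48_04782. In the male pupa, the library that L2 resembled more than other larvae did, the 2 copies had 2 reads and 21 reads. In the female pupa they had 198 reads and 61 reads. Why L2 stood apart was not tested. With RR48_04786, 3 of 7 copies were highest in L2, as were 6.51% of the genes tested.

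RR48_04781, RR48_04783 and RR48_04785 were highest in the egg or in L1. RR48_04781 had 52.7 RPKM in the egg and 36.6, 36.3, 3.63 and 2.98 RPKM in L1 to L4, and no read in L5. The female pupa had 4.31 RPKM and the male pupa 0.304 RPKM, while the female adult had no read and the male adult 0.492 RPKM. Its levels in L1 and L2 overlapped in their intervals, as did those in L3, L4 and the female pupa in turn. RR48_04783, the long model, had 29.5 RPKM in the egg and 66.5, 44.4, 9.88, 14.8 and 2.21 RPKM in L1 to L5. The female pupa had no read and the male pupa 0.0300 RPKM, while the female adult had 4.76 RPKM and the male adult 0.497 RPKM. It was the only one of the 3 with more than the allowance of 3 reads in L5, where it had 101. RR48_04785 had 36.1 RPKM in the egg and 54.4, 2.62, 43.9 and 1.06 RPKM in L1 to L4, and no read in L5. The female pupa and the female adult had none either, while the male pupa had 4 reads and the male adult 3. Its L2 level lay far below both L1 and L3, a dip that rests on the L2 library alone. Without L2, L3 was at 0.807 of L1 for this copy.

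Between successive stages, a copy was counted as different where log2(RPKM + 1) was at least 4-fold apart, and the share of all genes tested that differed as much is given beside it. The steps from L1 to L4, that from L1 to L3 and those from L5 to the pupae were looked at after the values had been seen. From the egg to L1, 0 of 7 copies differed this much, with 2.22% of genes higher and 2.6% lower in L1. In RPKM, RR48_04780 was 4.57-fold higher in L1 than in the egg (95% interval 3.14 to 6.83), and RR48_04783 was 2.26-fold higher (2.11 to 2.41). RR48_04787 was lower in L1, at 0.505 of its egg level (0.479 to 0.533).

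From L1 to L2 the copies differed in both directions. RR48_04780 and RR48_04782 were at least 4-fold higher in L2, as were 6.76% of genes, and RR48_04785 was at least 4-fold lower, as were 5.45%. In RPKM, RR48_04780 was 23.2-fold higher (19.8 to 27.3) and RR48_04782 249-fold higher (121 to 619.5), where L1 had 7 reads. RR48_04785 was at 0.0482 of its L1 level (0.0379 to 0.0606). RR48_04781 was level between the 2 instars within counting error, with a ratio of 0.991 (0.902 to 1.09).

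From L2 to L3, 5 copies differed. RR48_04780, RR48_04781, RR48_04782 and RR48_04783 were at least 4-fold lower in L3, beside 5.57% of genes, and RR48_04785 was at least 4-fold higher, beside 5.24%. In RPKM the L3 levels were 0.0896 of L2 for RR48_04780, 0.0999 for RR48_04781, 0.0251 for RR48_04782 and 0.223 for RR48_04783, while RR48_04785 was 16.7-fold higher (13.3 to 21.3). Both contrasts share the L2 library. With L2 left out, RR48_04781 and RR48_04783 were at least 4-fold lower in L3 than in L1, beside 2.81% of genes, and 0 copies were as much higher, beside 3.2%. Set against L1, L3 was at 0.0989 for RR48_04781 (0.0784 to 0.124), 0.149 for RR48_04783 (0.135 to 0.163) and 0.807 for RR48_04785 (0.742 to 0.878). In RPKM, RR48_04780 was 2.08-fold higher in L3 than in L1 (1.72 to 2.52). RR48_04782 was 6.24-fold higher (2.82 to 16.3), on 51 reads in L3 and 7 in L1. Between L4 and L3, RR48_04780 and RR48_04785 were at least 4-fold lower in L4, beside 2.28% of genes, at 0.0278 (0.0142 to 0.0491) and 0.0242 (0.0161 to 0.0350) of their L3 levels. RR48_04787 was 2.03-fold higher in L4 (1.94 to 2.12).

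L5 was the low point of the larval series for all 7 copies. All 7 were lower in L5 than in L4, as were 75.7% of the genes tested, whose median log2 difference was -0.60. L5 was the lowest of the 10 libraries, ties included, for 5 copies and for 32.5% of genes. RR48_04780, RR48_04781 and RR48_04785 had no read in L5, and 4.68% of genes were listed at 0 there. By the 95% interval of the ratio, RR48_04781 in L5 was at most at 0.0623 of its L4 level. The same upper limit was 0.181 for RR48_04785 and 0.481 for RR48_04780. RR48_04783 was the only copy at least 4-fold lower on the log2(RPKM + 1) scale, beside 7.07% of genes. Its L4 level was 6.68 times its L5 level (5.43 to 8.28). RR48_04787 was at 0.297 of L4 (0.281 to 0.315) and RR48_04786 at 0.365 (0.319 to 0.416). RR48_04782 had 1 read in L5 and 43 in L4, a ratio of 0.0311 (0.00077 to 0.183). The count of copies that differ here depends on the scaling and the added constant. It was 0 with each library scaled to its 75th percentile and 5 with a constant of 0.1 in place of 1. How many of all genes differ at those settings was not worked out.

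Larvae and the pupae and adults were compared as the mean of log2(RPKM + 1) over 5 and 4 libraries. These libraries are different stages and sexes, not replicates. The difference was positive in 7 of 7 copies, with a median of 2.09, beside a median of -0.31 over all genes tested, of which 35.1% were positive. It was 3.35 for RR48_04783, 2.75 for RR48_04785, 2.16 for RR48_04780, 2.09 for RR48_04781, 0.75 for RR48_04782, 0.49 for RR48_04786 and 0.13 for RR48_04787. In 0 copies did all larval values lie above all pupal and adult values, as they did in 5.46% of genes. Without L5, RR48_04783, RR48_04785 and RR48_04786 did not overlap, beside 6.6% of genes, and without the female adult RR48_04783 did not, beside 6.36%. Without L2 the difference of RR48_04782 was -0.37, and that of RR48_04780 was 1.05. For RR48_04786 it was 0.15 without L2. The sign of RR48_04787 depended on single libraries and on scaling, with -0.28 without the male adult, -0.11 without L4, -0.02 without the male pupa and -0.05 with scaling to the reads on genes.

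By counting interval, RR48_04782 and RR48_04787 were higher in the female at both stages, and RR48_04783 was higher in the female adult. The share of all genes higher in the female by this measure was not worked out. These directions therefore cannot be read as particular to the copies. RR48_04780, RR48_04781 and RR48_04786 differed in opposite directions in pupae and adults, which 23.9% of genes did by the same measure. In the female pupa RR48_04780 and RR48_04781 were at least 4-fold higher than in the male pupa on the log2(RPKM + 1) scale, as were 3.41% of genes. RR48_04780 had 198 reads in the female pupa and 2 reads in the male pupa, a ratio in RPKM of 100.4 (27.4 to 835). RR48_04781 had 126 reads in the female pupa and 9 in the male pupa, a ratio of 14.2 (7.25 to 31.8). With each library scaled to its 75th percentile, 1 of the 2 copies still passed, since RR48_04781 lay close to the threshold at 2.03. RR48_04787 was 2.64-fold higher in the female pupa (2.52 to 2.77), at 209 RPKM against 79.2 RPKM in the male pupa. RR48_04782 was 2.95-fold higher (1.77 to 5.10). RR48_04786 ran the other way, at 27.0 RPKM in the female pupa and 36.7 RPKM in the male pupa, a ratio of 0.737 (0.672 to 0.807). RR48_04783 and RR48_04785 had no read in the female pupa and 2 and 4 reads in the male pupa, too few to compare.

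**Figure D2:**
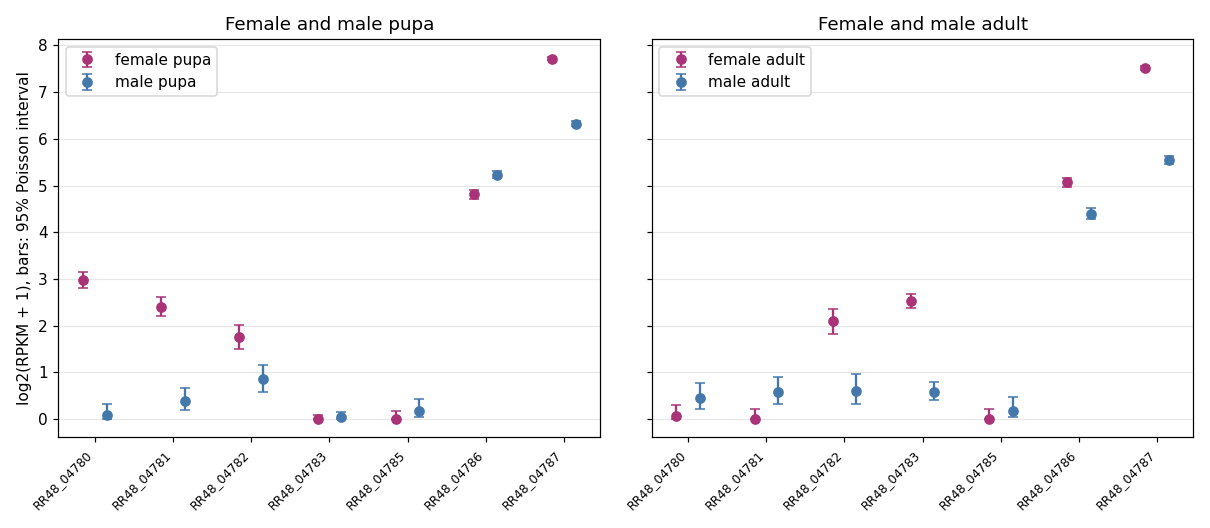
Level of each putative FPPS copy, as log2(RPKM + 1), in the female and the male pupa (left panel) and in the female and the male adult (right panel), with bars for the 95% Poisson interval of the reads. RR48_04787 is higher in the female at both stages (209 and 183 RPKM, against 79.2 and 45.5 RPKM in males), while RR48_04780 and RR48_04781 are higher in the female only in the pupa.

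In adults, 0 of 7 copies were at least 4-fold higher in the female on that scale, beside 2.7% of genes. As much lower were 0 copies, beside 8.5% of genes. Of the 7, 2 lay just under the threshold for being higher. RR48_04787 had 183 RPKM in the female adult and 45.5 RPKM in the male adult, a ratio in RPKM of 4.02 (3.76 to 4.30) and a log2(RPKM + 1) difference of 1.98. RR48_04783 had 252 reads in the female and 25 reads in the male adult, a ratio of 9.58 (6.34 to 15.1) and a log2(RPKM + 1) difference of 1.94. With 75th percentile scaling these 2 copies passed. With a constant of 0.1, 3 copies were at least 4-fold higher in the female adult, RR48_04782 with them, and RR48_04781 was at least 4-fold lower. The share of all genes was not worked out at these other settings. RR48_04782 was 6.37-fold higher in the female adult (3.26 to 13.9), with 67 reads against 10 in the male adult. RR48_04786 was 1.61-fold higher in the female adult (1.44 to 1.81), the opposite of its direction in pupae. RR48_04781 had no read in the female and 11 in the male adult, at least 2.64-fold lower in the female by the 95% interval. RR48_04780 had 1 read in the female and 8 in the male adult, a ratio of 0.119 (0.00268 to 0.886). RR48_04785 had no read in the female and 3 in the male adult.

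Adults were also set against pupae of the same sex. In the female adult RR48_04783 was at least 4-fold higher than in the female pupa, beside 9.05% of genes, with 252 reads against none in the pupa. RR48_04780 and RR48_04781 were at least 4-fold lower, beside 11.4% of genes, with 1 read and none in the female adult against 198 and 126 reads in the female pupa. By the 95% interval of the ratio, RR48_04783 was at least 84.3-fold higher in the female adult and RR48_04781 at least 27.1-fold lower. RR48_04787 differed little in comparison, with the female adult at 0.874 of the female pupa (0.841 to 0.908). In males, RR48_04787 in the adult was at 0.575 of the pupa (0.535 to 0.618) and RR48_04786 at 0.549 (0.491 to 0.612), and 0 copies reached 4-fold on the log2(RPKM + 1) scale, beside 8.48% of genes higher and 7.94% lower in the male adult. Set against L5, the female pupa was at least 4-fold higher in RR48_04780 and RR48_04781, beside 15.2% of genes. The male pupa was so in 0 copies, beside 18.8% of genes. As much lower were 0 copies in the female pupa, beside 8.35% of genes, and 0 in the male pupa, beside 8.48%. RR48_04783 fell short of that threshold, with 101 reads in L5, none in the female pupa and 2 in the male pupa. In RPKM it was at least 38.7-fold lower in the female pupa by the 95% interval, and the male pupa was at 0.0136 of L5 (0.00162 to 0.0503).

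Since RPKM is scaled by length, the copies could be added within a library. The sums and shares cover these 7 copies only, and the paper counts more FPPS genes than these in the species. The sum of the 7 copies was 339 RPKM in the egg and 299.9, 596, 239, 294 and 86.0 RPKM in L1 to L5. For pupae it was 249.9 RPKM in the female and 117 RPKM in the male, and for adults 223 RPKM in the female and 67.7 RPKM in the male. Without L2 the highest sum was that of the egg. RR48_04787 was the highest copy in every library but L2, where RR48_04780 led with 30.2% of the sum and RR48_04787 held 22.4%. In L1 RR48_04787 held 31.5% of the sum, in L3 48.5% and in the egg 55.2%. From L4 on it held 67.3% to 83.8%. Together RR48_04786 and RR48_04787 made up 39.7% of the sum in L2 and 97.4% in L5. Behind RR48_04787, the next copy was RR48_04781 in the egg and RR48_04783 in L1, and RR48_04786 from L3 on. The number of copies at 1 RPKM or more was 7 in L2 and L3, 6 in the egg, L1 and L4, and 3 in L5. Among pupae it was 5 in the female and 2 in the male, and among adults 4 in the female and 2 in the male. Of all genes tested, 89% reached this level in the egg, and 86.6%, 88.8%, 88%, 89.2% and 80.3% did in L1 to L5. For pupae the share was 86% in the female and 91.1% in the male, and for adults 84.1% in the female and 92% in the male.

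**Figure D3:**
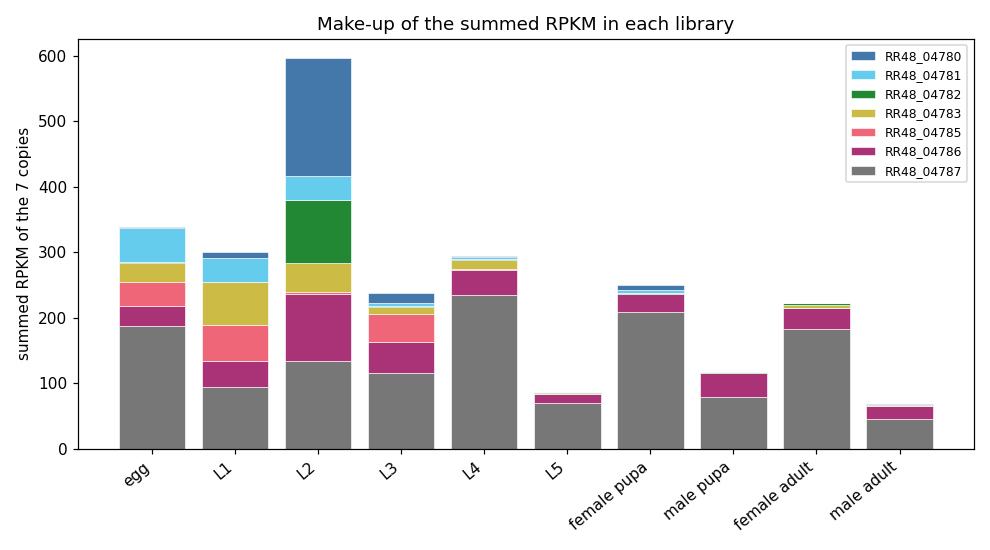
RPKM of the 7 putative FPPS copies stacked for each of the 10 libraries, with 1 colour per copy and the height of a bar giving their sum. The sum is highest in L2 (596 RPKM) and lowest in the male adult (67.7 RPKM), and from L4 on almost all of it is RR48_04787 and RR48_04786.

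The copies resembled one another to unequal degrees. Over the 10 libraries, the Pearson correlation of log2(RPKM + 1) ran from -0.04 to 0.83 across the 21 pairs, with a median of 0.41. The 5 pairs with consecutive tags had a median of 0.36, beside 0.29 for all 12805 consecutive pairs of genes tested. These correlations share libraries and their depth, and are given as a description. RR48_04782 and RR48_04786 were the closest pair at 0.83, and RR48_04780 correlated with them at 0.80 and 0.80. Without L2, those 3 correlations were 0.55 for RR48_04782 with RR48_04786, 0.26 for RR48_04780 with RR48_04782 and 0.51 for RR48_04780 with RR48_04786. RR48_04781, RR48_04783 and RR48_04785 correlated with one another at 0.73 to 0.79. RR48_04787 had no correlation above 0.35 with another copy, RR48_04786 at the preceding tag included, but without L2 its correlation with RR48_04782 was 0.71.

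**Figure D4:**
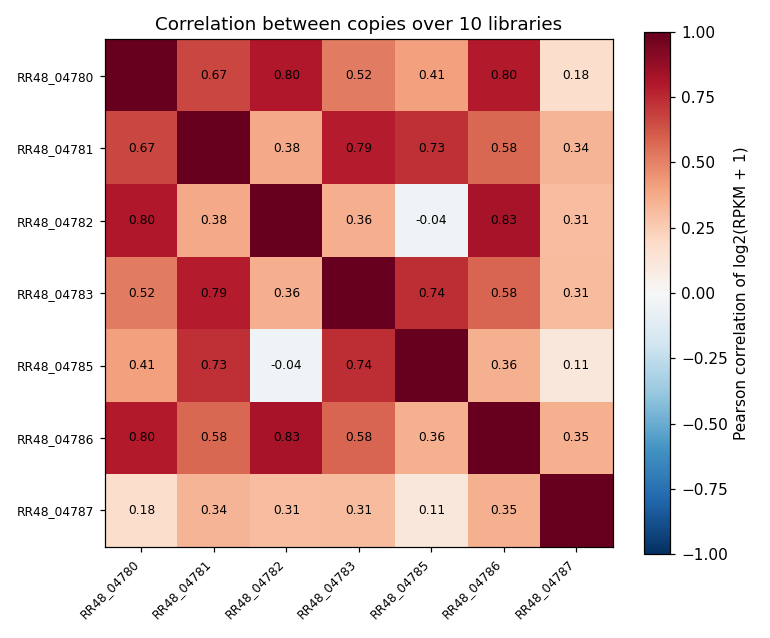
Pearson correlation of log2(RPKM + 1) over the 10 libraries between the 7 putative FPPS copies, in the order of their tags, with red for positive and blue for negative values. Values run from -0.04 between RR48_04782 and RR48_04785 to 0.83 between RR48_04782 and RR48_04786, and the row of RR48_04787 is the palest.

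The tag missing from the run, RR48_04784, is in the table but was almost without reads. It had 0.110 RPKM in L4 and 0.101 RPKM in the male pupa, 1 read each at the shortest length that made them whole, and was listed at 0 in the other 8 libraries. The tags on either side of the run had reads in every library. RR48_04779 had 17.3 RPKM in the egg, 11.6 to 18.9 in larvae, 37.8 and 51.8 in the female and male pupae, and 16.9 and 20.6 in the female and male adults. RR48_04788 had 20.9 RPKM in the egg, 1.54 to 11.5 in larvae, 6.55 and 5.38 in the female and male pupae, and 7.09 and 5.91 in the female and male adults. Neither had its highest library in L2. The higher of their 2 correlations with RR48_04787 over the 10 libraries was 0.45. That is above the 0.35 that RR48_04787 reached at most with another copy.

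Among 13977 genes outside the run, the profile most like that of RR48_04787 over the 10 libraries was that of RR48_09198 (Pearson correlation 0.94 on log2(RPKM + 1)), which had a mean of 78.7 RPKM and was highest in the female pupa at 159.7 RPKM. For RR48_04782, the copy with the lowest mean, it was RR48_12106 (0.96), with 29.8 RPKM in L2 and a mean of 3.66 RPKM. A total of 5 genes reached 0.9 with RR48_04787 and 20 with RR48_04782. These correlations with genes outside the run were not worked out without L2. RR48_04782 had 88.5% of its summed RPKM in L2, and RR48_12106 was also highest there, so the 0.96 may rest largely on that library.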

How the data were processed

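RNA of P. machaon was sequenced by the authors from poly(A)-selected, paired-end Illumina libraries, and the deposited table holds RPKM per gene, made by the authors from reads mapped to the genomes they assembled. The submitters' processing notes name TopHat 1.0.12 and 1.4.1 without a role, and the counting tool is not given in the sources used here. All 10 columns were matched to libraries by name, with 0 left over. RPKM values were used as deposited.

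Reads were worked out from RPKM. Denominators followed from shared divisors of the lowest values, gene lengths were taken as multiples of 3 bp, and each gene took the shortest length from 90 bp up that made its reads whole within 0.001 in all libraries, which succeeded for 15285 of 15285 genes. This was tested on simulated data. Those data were built with lengths in steps of 3 bp and with whole reads, so the test cannot check either assumption. Reads on genes were 1.05 to 1.55 times the denominators, a ratio whose scale follows from the assumed step of 3 bp. The reads served for counting intervals (Poisson, or exact binomial for ratios) and entered no count model.

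Fold changes are on log2(RPKM + 1), with 4-fold as threshold and a mean RPKM of at least 1 (13984 genes), and understate changes of low genes. No test was run, since each stage and sex has 1 library and the profiles chose the genes. The members and lists were chosen with earlier results of these data known. All 7 members were named, with the missing and flanking tags and the most similar gene to the highest and lowest member. The reference gene table, of assembly ilPapMach1.1, held 0 of the locus tags, so no sequences, positions or other genes of the juvenile hormone pathway are given. Alternatives were a constant of 0.1, 75th percentile scaling, 2-fold, no filter, Spearman correlation and leaving out libraries. Scaling to reads on genes was chosen after seeing the data. Python 3.11.15, numpy 2.4.6, pandas 2.3.3 and scipy 1.17.1 were used.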

Additional observations from a re-analysis of the deposited data

Results flagged for a closer look

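In 3 of the 7 putative FPPS copies the female and the male differed in opposite directions in pupae and in adults, with counting intervals off equality at both stages, as they did in 23.9% of all genes tested. With 1 animal per sex and stage the difference between the stages was not tested. RR48_04780 had a female minus male difference in log2(RPKM + 1) of 2.88 in pupae and -0.39 in adults, where it rested on 1 read and 8 reads. RR48_04781 had 2.03 in pupae and -0.58 in adults, where it rested on no read and 11 reads. RR48_04786 had -0.43 in pupae and 0.66 in adults, on 465 reads or more in each of the 4 libraries. The size of its pupal difference depended on the scaling. With 75th percentile scaling it was -0.61 in pupae and 0.72 in adults, and with scaling to the reads on genes -0.21 and 0.54.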

How the results depend on the processing

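Of the 2 copies at least 4-fold apart between the female and the male pupa, 1 was left with 75th percentile scaling. For adults the count was 0, and it was 4 with a constant of 0.1 (3 higher and 1 lower in the female), 2 with 75th percentile scaling and 3 at a threshold of 2-fold. Between L5 and L4 it was 1, and 5 with a constant of 0.1, 0 with 75th percentile scaling and 6 at 2-fold. It was 2 with scaling to the reads on genes, an alternative chosen after seeing the data. Shares of all genes at least 4-fold apart were worked out only with a constant of 1 and values as deposited. Counts of copies at the other settings therefore have no share beside them and cannot be read as particular to these copies. The median log2 difference of all genes between L5 and L4 was -0.60 as deposited and -0.24 with 75th percentile scaling. The count of copies whose larval values all lay above those of pupae and adults was 0, and 0 to 3 with 1 library left out. It was 3 without L5 and 1 without the female adult. The median correlation between copies stayed between 0.36 and 0.57 with 1 library left out. No paired analysis was possible because each stage and sex has 1 library. Depth limits the low copies only, since 3 reads on 1 kb are 0.113 to 0.167 RPKM with the library totals worked out under the 3 bp step.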
